A study of Mus musculus with 4 samples.

Results

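Thrombomodulin (Thbd), tissue factor (F3), tissue plasminogen activator (Plat) and tissue factor pathway inhibitor (Tfpi) were lower in fibroblasts from Zip13KO mice than in fibroblasts from WT mice. The genes described here were chosen by name as plasminogen activators, their receptor and inhibitor, and proteins that control clotting at the cell surface: Thbd, Procr, F3, Tfpi, Tfpi2, Plat, Plau, Plaur and Serpine2. Of these 9 genes, 8 had a row with a single gene symbol in the array table, out of 22180 genes in all, and Serpine2 is not analysed here. Where a gene has several rows, the brightest by mean log2 intensity over the 4 arrays stands for it; each of the 8 had 1 row, so this rule made no choice among them. The genes were put together with earlier results of these arrays known, so a low p of one of them is not independent evidence about the set.

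The Zip13KO group, 2 arrays, held fibroblasts of mice lacking Zip13 (written Zip13-/- in the study's design), the zinc transporter encoded by Slc39a13, and the WT group, also 2 arrays, held fibroblasts of wild-type mice. The study profiled them on Affymetrix Mouse Gene 2.0 ST arrays to ask how local zinc balance bears on the Golgi and the region around the nucleus. The labels call the arrays biological replicates and give neither the animals' age nor the tissue of origin. They do not say whether replicates are separate animals or cultures. The p-values may therefore measure spread between cultures and not between animals. The comparison was Zip13KO against WT throughout, in log2 units of intensity with the standard error (SE) of limma's moderated fit.

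Clotting starts when tissue factor, a membrane protein of fibroblasts and other cells around vessels, binds factor VII and sets off the formation of thrombin. Tfpi blocks that step, while thrombomodulin holds thrombin on the cell surface and turns it towards activating protein C, which the receptor Procr presents and the cofactor protein S (Pros1) assists. Clots and matrix are removed by plasmin, which is made from plasminogen by 2 activators, tissue-type (Plat) and urokinase-type (Plau), the second of them held at the cell surface by its receptor Plaur. In connective tissue, fibroblasts use the urokinase system in migration and matrix turnover.

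The median intensity was 96.1 and 95.2 on the Zip13KO arrays and 96.1 and 94.5 on the WT arrays. Of 8 fibroblast markers, 7 lay above the array median on all 4 arrays, collagen I (Col1a1, Col1a2), Fn1 and Vim among them, and Lum lay below it on all 4. That median was taken over all 41345 rows. Of all 22180 genes, 12692 lay above it on all 4 arrays and 7813 below it. The Zip13 gene itself, Slc39a13, had intensities of 474 and 506 on the arrays labelled Zip13KO, against 491 and 461 in WT (difference 0.04, SE 0.08, limma adjusted p = 0.820). Which part of the gene the knockout removed, and whether the probes lie in it, is not known here; this level therefore cannot serve as a check of the labels, which are taken as given.

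The DNA just upstream of the start sites is shown for F3 and Tfpi, the genes lower in Zip13KO for which it was at hand. It is also shown for Plaur, which did not pass the test, as an example from the genes on the other side of that line. Each run gives the 250 bases before an annotated start, 5′ to 3′ along the gene, from RefSeq in build GRCm38.p6. Capitals mark matches, on either strand, to 6 short motifs. These are the binding motif of AP-1, spelled TGANTCA, the GC box bound by Sp1, spelled GGGCGG, the core promoter box for the TATA-binding protein, spelled TATAAA, a partial cAMP response element, spelled TGACG, the motif of TEAD factors, spelled GGAATG, and the box of Krüppel-like factors, spelled CACCC. Adjacent or overlapping matches merge into 1 block.
F3, chr3:121723287-121723536, plus strand: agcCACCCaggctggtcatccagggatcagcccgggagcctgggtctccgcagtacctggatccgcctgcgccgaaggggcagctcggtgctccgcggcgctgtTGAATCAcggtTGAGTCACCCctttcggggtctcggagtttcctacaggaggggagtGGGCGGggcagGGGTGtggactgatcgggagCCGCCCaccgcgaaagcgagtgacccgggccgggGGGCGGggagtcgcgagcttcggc
Tfpi, outer start, chr2:84476760-84477009, minus strand: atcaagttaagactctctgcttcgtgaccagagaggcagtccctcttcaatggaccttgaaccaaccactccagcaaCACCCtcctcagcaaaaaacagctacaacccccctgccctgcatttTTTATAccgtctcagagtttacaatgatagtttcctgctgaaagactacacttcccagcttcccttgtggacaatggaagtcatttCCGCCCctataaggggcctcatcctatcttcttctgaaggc
Tfpi, inner start, chr2:84474175-84474424, minus strand: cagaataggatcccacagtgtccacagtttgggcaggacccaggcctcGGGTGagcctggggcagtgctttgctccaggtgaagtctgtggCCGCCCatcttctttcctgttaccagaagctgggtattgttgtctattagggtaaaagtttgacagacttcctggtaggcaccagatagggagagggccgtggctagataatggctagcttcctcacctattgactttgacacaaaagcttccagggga
Plaur, chr7:24462233-24462482, plus strand: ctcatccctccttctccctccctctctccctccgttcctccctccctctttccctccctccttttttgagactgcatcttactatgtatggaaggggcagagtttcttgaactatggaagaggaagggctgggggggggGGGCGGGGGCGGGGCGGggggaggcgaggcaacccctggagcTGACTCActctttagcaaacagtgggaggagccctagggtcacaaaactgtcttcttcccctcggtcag

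The F3 window held 2 AP-1 matches, which begin 146 and 135 bases before the start, and 3 GC boxes at 89, 58 and 24 bases. The second AP-1 match overlaps a match to the Krüppel-like box. Neither Tfpi window held an AP-1 match, and the outer one held a TATA match on the reverse strand, 127 bases before the start. Plaur held 1 AP-1 match, 69 bases before its start, and 3 GC boxes. Windows were found for 5 of the 8 genes, 8 windows in all. None was at hand for Thbd, Plat or Plau, so the lower genes Thbd and Plat are missing here. Tfpi and Tfpi2 each have more than 1 window, and some of those of Tfpi2 overlap. AP-1 matched 4 of the 8 windows, in F3, Plaur, Procr and Tfpi2. Of all 32851 windows of the same length, 6.75% held AP-1, 32.7% a GC box, 12.4% the TATA box, 17.8% the partial cAMP response element, 12.6% the TEAD motif and 52.0% the Krüppel-like box. AP-1 matches thus stood upstream of a gene that fell (F3) and of genes that did not pass the test (Plaur, Procr and Tfpi2). The TEAD motif was in none of the 8 windows.

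Of the 8 genes, 4 fell in Zip13KO and none rose in limma at an adjusted p under 0.05, with none higher at an unadjusted p under 0.05. Among all genes tested 10.1% fell, and 17.1% passed in either direction, 1552 of them higher and 2234 lower. The median difference over the 8 was -0.28, and over all genes it was -0.00341. The 2 arrays of one group lay entirely to one side of the other group's for all 8, with 6 lower and 2 higher. This held for 51.5% of all genes (27.3% lower and 24.1% higher), and for Procr and Tfpi2 the gap between the groups was under 0.01 log2 units (0.00901 and 0.00634). With 2 arrays a group, the smallest two-sided p of an exact permutation test is 0.333, and calls therefore come from limma's moderated fit. That fit joins 2 residual degrees of freedom from a gene's own arrays with 15.1 taken from the variance of all genes. Its SEs and p-values thus rest mostly on spread shared over all genes, and less on the agreement of that gene's own arrays. A filter on low intensity, under which a gene must exceed the median of 2 or more arrays, kept 7 of the 8 and removed Tfpi2. It kept 13819 of all 22180 genes. Thbd passed it through the WT arrays alone, so the filter is no separate check of that gene.

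**Figure D1:**
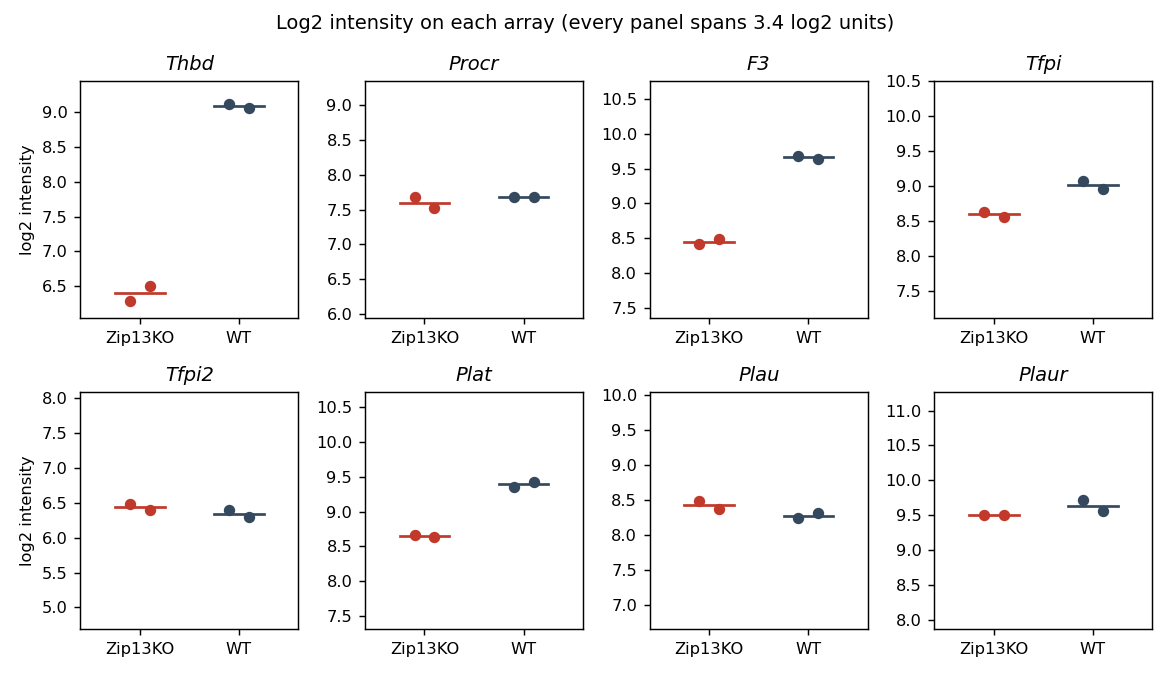
Log2 intensity of each gene on every array, Zip13KO left and WT right; points are single arrays, lines are group means, and every panel spans the same range of log2 units. Thbd shows the widest gap of the 8, followed by F3 and Plat, while the groups for Procr and Tfpi2 nearly touch.

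Thrombomodulin, the thrombin receptor that starts the protein C pathway, showed the widest difference of the 8. Its intensity was 78.3 and 91.2 on the Zip13KO arrays, against 552 and 535 on the WT arrays. Both Zip13KO values lay under the median of their arrays and both WT values far above it. Thbd was 6.43-fold lower in Zip13KO, a difference of -2.68 (SE 0.09, 95% interval -2.87 to -2.50, limma adjusted p = 1.53e-13). Only 10 of the 22180 genes had a lower difference. The Zip13KO intensities are dim enough for background to make up part of them, so the fold may understate the difference and is best read as a minimum. In bulk RNA, fewer cells that express a gene and less of its RNA per cell cannot be told apart.

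The endothelial protein C receptor Procr, which presents protein C to the thrombin bound on thrombomodulin, did not pass the test. It had 204 and 184 in Zip13KO, against 206 and 206 in WT. The lower of the Zip13KO values stood apart and the other nearly equalled WT. The difference was -0.09 (95% interval -0.26 to 0.09, limma adjusted p = 0.607). This interval and that of Thbd did not overlap, and the difference between the genes was not itself tested.

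Protein S (Pros1), the vitamin K-dependent cofactor of activated protein C and of Tfpi, fell as well. Its intensity was 188 and 195 in Zip13KO, against 443 and 439 in WT. The arrays of each group lay close together and the groups far apart, with a difference of -1.20 (SE 0.08, limma adjusted p = 1.64e-09). The zymogen protein C (Proc), made chiefly in liver, had a difference of -0.11 (adjusted p = 0.458).

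Tissue factor, the cell-surface trigger of clotting, fell by 1.21 log2 units. F3 had 340 and 359 in Zip13KO, against 820 and 796 in WT. The Zip13KO arrays lay far under the WT arrays, and the gap of 1.15 log2 units between the groups exceeded the spread within either. The difference was 2.31-fold (SE 0.07 log2 units, 95% interval -1.36 to -1.05, limma adjusted p = 9.32e-10). With Thbd, F3 made 2 of the 8 genes past the threshold and at least 2-fold lower, a condition that 0.739% of all genes met.

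Tfpi, the Kunitz-type inhibitor of tissue factor with factor VII, fell by 0.42 log2 units. It had 396 and 377 in Zip13KO, against 540 and 494 in WT. Both Zip13KO arrays were lower than both WT arrays, and the difference was -0.42 (SE 0.08, 95% interval -0.58 to -0.26, limma adjusted p = 6.44e-04). The intervals of F3 and Tfpi did not overlap, though the difference between these genes was not itself tested. Tfpi2, a related Kunitz inhibitor that acts on plasmin and other matrix-directed proteases, was dim on all 4 arrays, at 89.0 and 84.6 in Zip13KO and 84.2 and 78.5 in WT. All of these lie under the array medians, and the difference of 0.09 did not pass (95% interval -0.08 to 0.27, limma adjusted p = 0.559).

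Of the plasminogen activators, the tissue type fell and the urokinase type did not pass the test. Plat had 404 and 398 in Zip13KO, against 656 and 684 in WT. The arrays of each group agreed within 0.1 log2 units while the groups differed by -0.74 (SE 0.07, 95% interval -0.89 to -0.59, limma adjusted p = 5.71e-07), 1.67-fold lower. Plau had 358 and 330 in Zip13KO, against 303 and 318 in WT. The Zip13KO values were the higher ones by a narrow margin, and the difference of 0.15 did not pass (SE 0.08, 95% interval -0.02 to 0.31, limma adjusted p = 0.254). The intervals of Plat and Plau did not overlap, and the difference between them was not itself tested.

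Plaur, the anchor of urokinase at the cell surface, was bright on every array. It had 729 and 722 in Zip13KO, against 843 and 753 in WT. WT replicate 1 was the highest of the 4 and the other arrays lay close together. The difference of -0.14 did not pass (95% interval -0.29 to 0.02, limma adjusted p = 0.280).

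**Figure D2:**
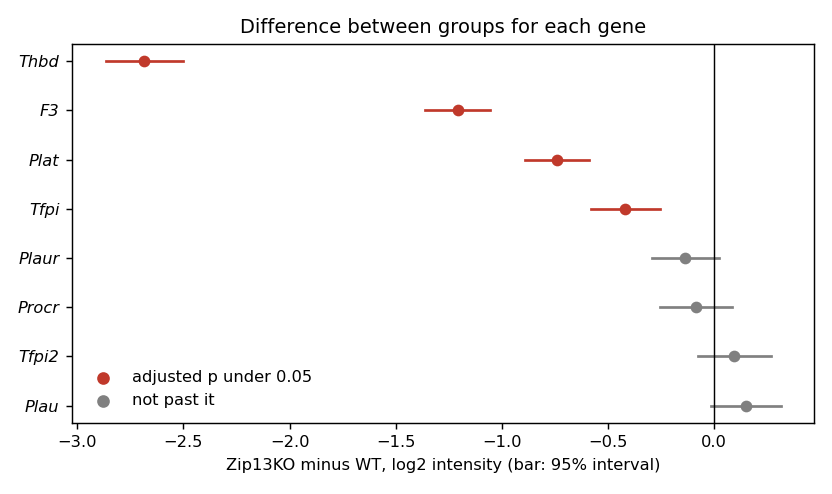
Difference between Zip13KO and WT for each gene in log2 intensity (points) with its 95% interval from limma (bars); red marks an adjusted p under 0.05 and grey the rest. The 4 red genes lie left of 0, from Tfpi at -0.42 to Thbd at -2.68, and the intervals of the 4 grey genes include 0.

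The wider clotting and plasminogen genes were followed through a list of 49, of which 44 were measured and the others are not analysed here. Of these 44, 6 fell and 1 rose in limma, with a median difference of -0.03. That share is close to the background given above. A total of 20 of the 44 lay under the median on all 4 arrays, among them fibrinogen chains (Fga, Fgb, Fgg), kininogens (Kng1, Kng2) and antithrombin (Serpinc1), which are made chiefly in liver. Another 21 lay above it on all 4, with the liver-made factors F2, F7, F10, F11 and F12 among them. The median therefore does not mark which genes are expressed. Of all 22180 genes, 12692 lay above it on all 4 arrays and 7813 under it.

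In the plasminogen system, 3 of 12 measured genes fell and none rose in limma, with no other of the 12 higher at an unadjusted p under 0.05. Lrp1, the endocytic receptor that clears activators bound to their inhibitors as well as Tfpi, had 306 and 358 in Zip13KO, against 761 and 694 in WT. No Zip13KO array came near the WT values, and the difference was -1.13 (SE 0.08, limma adjusted p = 1.63e-08). S100a10, which with annexin A2 forms a cell-surface docking site for plasminogen and Plat, had 2424 and 2389 in Zip13KO, against 3405 and 3341 in WT (difference -0.49, SE 0.06, limma adjusted p = 7.63e-06). Its partner Anxa2 was at -0.13 (adjusted p = 0.187). Serpinb2, an inhibitor of urokinase, was dim and fell by 0.45, with 104 and 89.6 in Zip13KO against 128 and 137 in WT (limma adjusted p = 0.00128). Plasminogen itself (Plg) lay under the median on every array, at 86.5 and 83.5 in Zip13KO and 86.4 and 90.7 in WT (difference -0.06, limma adjusted p = 0.746).

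Among the clotting factors and the proteins that make them, 2 of 21 fell and none rose in limma. The share that fell is close to the 10.1% of all genes, so the count says little about the group. Kng2 was higher at an unadjusted p under 0.05, at 0.19 (limma adjusted p = 0.125). Ggcx, the carboxylase that modifies vitamin K-dependent factors in the endoplasmic reticulum, had 373 and 403 in Zip13KO, against 570 and 509 in WT (difference -0.47, SE 0.08, limma adjusted p = 2.81e-04). Lman1, the cargo receptor that carries factors V and VIII from the endoplasmic reticulum towards the Golgi, had 1354 and 1381 in Zip13KO, against 1702 and 1676 in WT (difference -0.30, SE 0.06, limma adjusted p = 0.00205). Both genes thus had lower values on each Zip13KO array than on either WT array, as did 27.3% of all genes. Mcfd2, the partner of Lman1, was at -0.10 (adjusted p = 0.512), and the vitamin K reductase Vkorc1 at -0.03 (adjusted p = 0.883).

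Pros1 was the 1 gene of 8 anticoagulants that fell, and none of them rose in limma or at an unadjusted p under 0.05. Of 3 measured receptors for thrombin and related proteases, F2r, the main thrombin receptor of fibroblasts, was just past the threshold. It had 2031 and 2142 in Zip13KO, against 1879 and 1770 in WT, a difference of 0.19 (SE 0.06, limma adjusted p = 0.0468). The call did not hold with the replicate number as a block (adjusted p = 0.147), nor without Zip13KO replicate 2 (0.158), without WT replicate 1 (0.0713) or without WT replicate 2 (0.341).

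**Figure D3:**
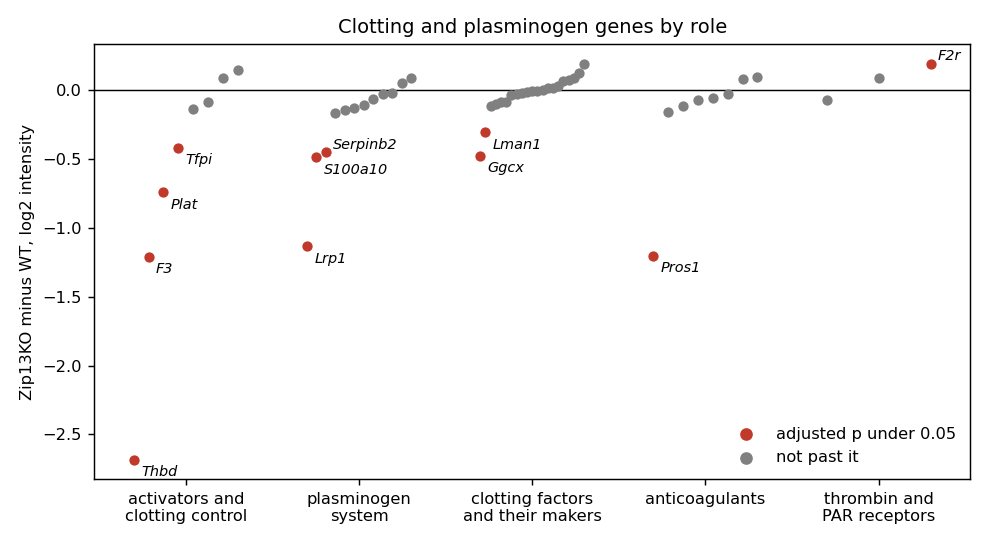
Difference between Zip13KO and WT in log2 intensity for the 8 genes described here and for 44 further genes of clotting and plasminogen activation, grouped by role (PAR, protease-activated receptor); each point is a gene, and red marks an adjusted p under 0.05. Most grey points lie near 0, while Lrp1 at -1.13 and Pros1 at -1.20 lie at about the level of F3.

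Thrombomodulin and Procr are best known from endothelium, so endothelial markers were set beside them. None of 9 such markers passed the test, 7 lay under the median on all 4 arrays, and their summed intensity was 742 and 761 in Zip13KO, against 744 and 720 in WT. Pecam1 and Cdh5 lay above the median on all 4 arrays (differences 0.05 and 0.20, limma adjusted p = 0.792 and 0.124). The 2 groups overlapped in the endothelial sum and not in Cdh5, which was higher on both Zip13KO arrays (unadjusted p = 0.0273). Of 6 smooth muscle and pericyte markers, Acta2 (-2.08), Cspg4 (-1.08) and Cnn1 (-0.55) fell and none rose in limma. Myh11, Rgs5 and Des did not pass, at 0.01, -0.07 and 0.23, the last higher on both Zip13KO arrays (unadjusted p = 0.0101). The sum of the 6 was 2153 and 2160 in Zip13KO, against 7616 and 7205 in WT, most of it from Acta2. Without Acta2 it was 587 and 591 in Zip13KO, against 829 and 753 in WT. Of 6 leukocyte markers, Cd68 rose by 0.40 and Csf1r fell by 0.26, and 4 lay under the median on all 4 arrays. The sum of the 6 was 508 and 520 in Zip13KO, against 525 and 479 in WT. Of the 4 mesothelial markers, Msln rose by 2.97 and the other 3 did not pass, with a sum of 1746 and 1793 in Zip13KO, against 570 and 578 in WT. Fibroblast markers changed too, with 4 of 8 lower and 1 higher, and a sum of 14073 and 14759 in Zip13KO, against 18676 and 17969 in WT. None of 5 epithelial, 3 megakaryocyte and 1 Schwann cell markers measured passed the test. The part of the endothelial, contractile, mesothelial, leukocyte and fibroblast markers in the results above was not tested.

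Thbd, Tfpi and Procr lie on chromosome 2, as does Slc39a13, with 490, 262 and 631 measured genes between them and it. Among the 50 measured genes nearest to Thbd, 5 rose and 2 fell, with a median difference of 0.03. Among those nearest to Tfpi, none rose and 12 fell, with a median of -0.04. Among those nearest to F3 on chromosome 3, 2 rose and 15 fell, with a median of -0.05. Near Plat on chromosome 8, 2 rose and 10 fell, with a median of -0.06. Near Procr 9 rose and 3 fell (median 0.03), and near Slc39a13 itself none rose and 5 fell (median 0.003). Over all 22180 genes, 1552 rose and 2234 fell, the latter 10.1%. The shares that fell near Tfpi, F3 and Plat lay above this 10.1%. Those near Thbd and Procr lay below it, and that near Slc39a13 was close to it. Whether these regions differ from the rest was not tested. In a separate fit, each chromosome was cut into consecutive blocks of 50 measured genes and each gene was centred on its block's median. These blocks are not the sets of nearest genes counted above. There Tfpi was at -0.30 (limma adjusted p = 0.0133), F3 at -1.09 (5.08e-08), Plat at -0.67 (9.55e-06) and Thbd at -2.69 (5.68e-11).

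The 5 genes whose pattern over the 4 arrays lay nearest to that of Thbd, by Euclidean distance between log2 values centred on each gene's mean, were Papss2, Mmp2, Epb41l4a, Thbs1 and Arsj. Their differences were -2.75, -2.68, -2.53, -2.51 and -2.82, so the likeness mainly reflects differences of similar size, and 4 arrays allow little more.

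**Figure D4:**
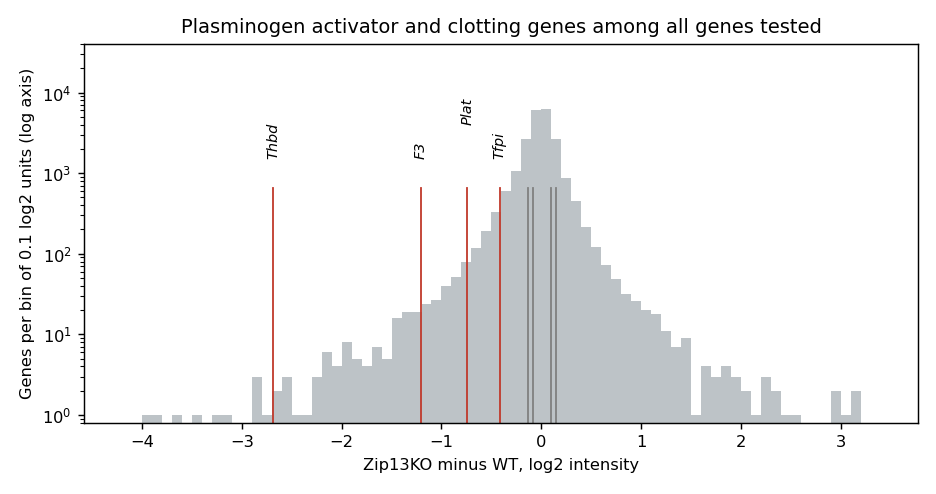
Number of genes (log axis) by difference between Zip13KO and WT in bins of 0.1 log2 units, for all 22180 genes; vertical lines mark the 8 genes described here, red where the adjusted p was under 0.05. Thbd at -2.68 lies in the sparse lower tail, F3 and Plat on its shoulder, and the grey lines of Plau, Plaur, Procr and Tfpi2 in the central mass.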

How the data were processed

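RNA from fibroblasts had been measured on 4 single-colour arrays, and the deposited table holds linear intensity, made by the authors with Affymetrix Expression Console and RMA (background correction, normalization between arrays and probe summary), per the submitters' processing notes, which name no versions. Such normalization hides a change shared by most genes. Of 41345 rows, 23521 had 1 gene symbol, 1814 several and 16010 none in the platform annotation. The brightest row was kept for each of 22180 genes, and log2 was taken without pseudocount or filter. Genes were tested with limma 3.58.1 in R 4.3.3 (eBayes with trend, two-sided, Benjamini-Hochberg over all genes, threshold 0.05). Figures used matplotlib 3.10.9.

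Named were the 8 measured members, Slc39a13, the called genes of the wider list (up to 8 per direction by size), Plg, Lrp1 and F2r, and the 5 patterns nearest to the widest difference; the further genes named for their role, for an unadjusted p or as markers were chosen after their values were seen. Members and lists were chosen with earlier results of these data known. On data simulated for this comparison from 22180 genes, recovery was 98% at a true difference of 0.5 log2 units and 100% at 1, 2 and -1, with 12 false calls among 211. Each difference was given to 50 genes, a far smaller share than the 17.1% of genes called here. These rates may therefore not hold for the calls made on the real arrays. Alternatives were a replicate block, a low-intensity filter, quantile normalization or median centring of arrays, eBayes without trend or with robust variance, mean rows, all rows, chromosome blocks, each array left out, and crossed replicate numbers.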

Additional observations from a re-analysis of the deposited data

How the results depend on the processing

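All 8 genes kept their direction in each of the 14 alternatives that could be run (13 for Tfpi2, which the filter on low values removed). Crossed replicate numbers were among them, an alternative chosen after seeing the data. Most of these could not turn a direction. The replicate blocks, the filter, the eBayes variants, mean rows and all rows left the difference itself unchanged. Leaving out an array could not reverse it, since the groups overlapped for none of the 8. Only quantile normalization, median centring and chromosome blocks could. Each gene kept its side of the threshold wherever all 4 arrays were fitted, and the 4 lower genes stayed 4. Thbd ranged from -2.79 to -2.57, F3 from -1.25 to -1.09, Plat from -0.77 to -0.67 and Tfpi from -0.48 to -0.30, where Tfpi had adjusted p up to 0.0346. In the wider list, F2r passed in 7 of 14 alternatives, so the count of higher genes was 0 with the replicate number as a block, with arrays centred on their median, without trend and with every row in the fit, 2 after centring on chromosome blocks, which added Kng2, and 0 to 1 with an array left out. Lower genes of the list numbered 5 to 7, and Serpinb2 did not pass with every row in the fit (adjusted p = 0.0605). With every row, 669 genes rose and 1137 fell, against 1552 and 2234. Unadjusted p-values were higher in that fit too (1.06e-07 against 1.58e-16 for Thbd), and the cause was not tested.

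Same-numbered arrays are not stated to be paired, and their deviations from the group means correlated at -0.16. With the replicate block 1374 genes rose and 1990 fell, and 4 of the 8 genes fell as before. With crossed numbers 2203 rose and 3005 fell. A group of 2 arrays limits the precision, and so does signal near background for Tfpi2, for Serpinb2 and for Thbd on the Zip13KO arrays.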
